A study of Mus musculus with 12 samples.

Results

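Vascular smooth muscle cells (VSMCs) that lacked Hif1a were compared with VSMCs that kept it, both exposed to 150 µM cobalt chloride (CoCl2) for 24 h. The comparison used 6 of the 12 arrays of the study, chosen by their titles: 3 of Hif1a△SMC cells with CoCl2 and 3 of Hif1afl/fl cells with CoCl2. The cells came from male mice and were grown in smooth muscle medium with serum. Hif1afl/fl cells carry Hif1a alleles flanked by loxP sites and serve as the control with intact Hif1a. Hif1a△SMC cells carry a disruption of the gene that is specific to smooth muscle. The Cre driver and the age of the mice are not given in the sources used here. The other 6 arrays held the same genotypes, 3 of each, given phosphate-buffered saline (PBS) in place of CoCl2. They entered the estimate of the spread and the comparison with the deletion effect without CoCl2. Total RNA was labelled and hybridised to custom single-colour Agilent arrays of long noncoding and other transcripts. Whether the 3 arrays of a group stem from different animals or cultures is not in the labels. The p-values therefore cover the spread among these arrays alone, and that spread may be technical.

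Hypoxia-inducible factor 1 is a pair of an oxygen-regulated subunit, HIF-1alpha, and a constitutive partner. With oxygen present, prolyl hydroxylases mark HIF-1alpha for destruction, and cobalt ions block that step, so that CoCl2 serves as a chemical mimic of hypoxia. The stabilised factor binds short DNA elements with the core ACGTG or GCGTG and raises genes of glycolysis, iron handling and blood vessel growth. In vascular smooth muscle it is known for roles in proliferation and in the remodelling of the vessel wall.

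The array names few of the genes best known for this pathway. Control probes for Pgk1 and Gapdh aside, 0 of the 22 listed glycolysis genes and 0 of the 30 other listed HIF targets had a probe that could be named. No probe was named Hif1a, so the disruption was not checked on these arrays. None of the 7 lists of markers of other cell types had a named probe either, so other cell types were not assessed. Of the contractile smooth muscle list, 5 of 23 genes had a probe. Carmn, a long noncoding RNA of smooth muscle, was well above background on all 6 arrays, at 0.70, 0.52 and 0.55 on the floxed arrays and 0.43, 0.72 and 0.06 on the deleted arrays. All such levels are log2 signal minus the 75th percentile of the array. The deleted arrays spanned the floxed ones, and the difference of -0.19 (SE 0.21, 95% interval -0.63 to 0.26) did not pass the test (limma, adjusted p = 0.433). Fewer cells of a type and less RNA per cell cannot be told apart in such samples.

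The deleted arrays with CoCl2 were dimmer than the floxed ones. Probes well above background made up 75.7% ± 7.56 (SD, n = 3) on the floxed arrays and 54.7% ± 3.43 (SD, n = 3) on the deleted arrays, and the 75th percentile of log2 signal was 9.26 ± 0.15 and 8.17 ± 0.10 in the same order, with no overlap in either measure. Floxed array 2 had the highest share of all 12 arrays (82.7%). The median of its 600 negative-control spots was 2.24 log2 units, the lowest of the 12, with 2.41 to 3.43 on the other arrays. Their mean on that array was 8.67 because of 1 spot at 17.88 that the scanner software marked as an outlier, and 2.34 without it. Log2 signal correlated at 0.970 to 0.987 within the floxed arrays, 0.972 to 0.976 within the deleted arrays and 0.842 to 0.925 between the genotypes, across probes, which are not independent replicates. The floxed arrays lay on slides 1 (1 array) and 2 (2 arrays) and the 3 deleted arrays on slide 3. No slide held both groups, so genotype and slide cannot be told apart within a slide, and deleted array 2 was scanned 4 days after the others. With 3 arrays a group, precision is limited throughout.

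Without slide in the fit, most tested probes differed between the deleted and the floxed arrays under CoCl2. A probe was tested where it was well above background on all 3 arrays of either group, and called at a limma adjusted p below 0.05. Of 65948 probes tested, 45577 were called (69.1%), with 22277 higher in deleted cells (33.8%) and 23300 lower (35.3%). Without floxed array 2, 40408 were called, 18789 higher and 21619 lower, and with slide as a block 17822 were called. The groups did not overlap for 68.5% of the probes, and 35.7% were called with a difference of at least 2-fold, 5749 of them higher and 17779 lower. Of the 47887 probes above background on all 6 arrays, 31996 were called (66.8%), 22203 higher (46.4%) and 9793 lower (20.5%). That filter removes probes that sank to background: 8971 tested probes were not above background on any deleted array, and 8387 of these were called lower, whereas 9 were below it on all floxed arrays.

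The balance of directions rested on how the arrays were scaled. Of the called probes, 48.9% were higher in deleted cells after scaling to the 75th percentile. The share was 24.6% after scaling to the 6 E1A control probes that were measurable on every array and 62.9% with all 10 E1A probes. With 4 of them, a setting added after seeing the data, the share was 0.228%. It was 30.1% when the percentile was taken over probes above background on all 12 arrays. Quantile normalization gave 51.6%, normexp background correction 64.5% and both together 52.9%. The median difference over all tested probes was 0.11 on the log2 scale under the first scaling and ran from -1.12 to 0.53 over all 8. Under all 8 scalings 12240 probes were called lower (18.6%) and 95 higher (0.144%), while 9697 were called in opposite directions by different scalings. The 95 are all the probes that the scaling to 4 E1A probes called higher. Slide could be fitted as a block only through the PBS arrays. With it, 17822 probes passed, 5621 higher and 12201 lower, and of the 12240 probes lower under all 8 scalings 8629 were called lower (70.5%).

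Control probes on the same arrays show how uneven the change in raw signal was. E1A and ERCC probes match no mouse gene, and the E1A probes target spike-in RNA of the Agilent labelling kit. Before scaling, E1A probe a22 read 11.65, 12.31 and 12.14 log2 units on the floxed arrays and 9.13, 9.1 and 9.51 on the deleted arrays. Probe ERCC-00012_90 read 11.17, 11.80 and 11.58 against 8.56, 9.20 and 8.98. Both were lower on every deleted array than on any floxed array, by a mean of 2.79 and 2.60. E1A probe n11 read 10.05, 10.198 and 10.13 against 9.89, 10.96 and 9.92, and n9, 1 and a97 had the same pattern, with deleted array 2 above all floxed arrays and deleted arrays 1 and 3 below them. After scaling, the differences of these control probes ran from -3.13 for E1A probe a107 to 1.28 for E1A probe 1. The part that these shifts have in the gene results was not tested.

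**Figure D1:**
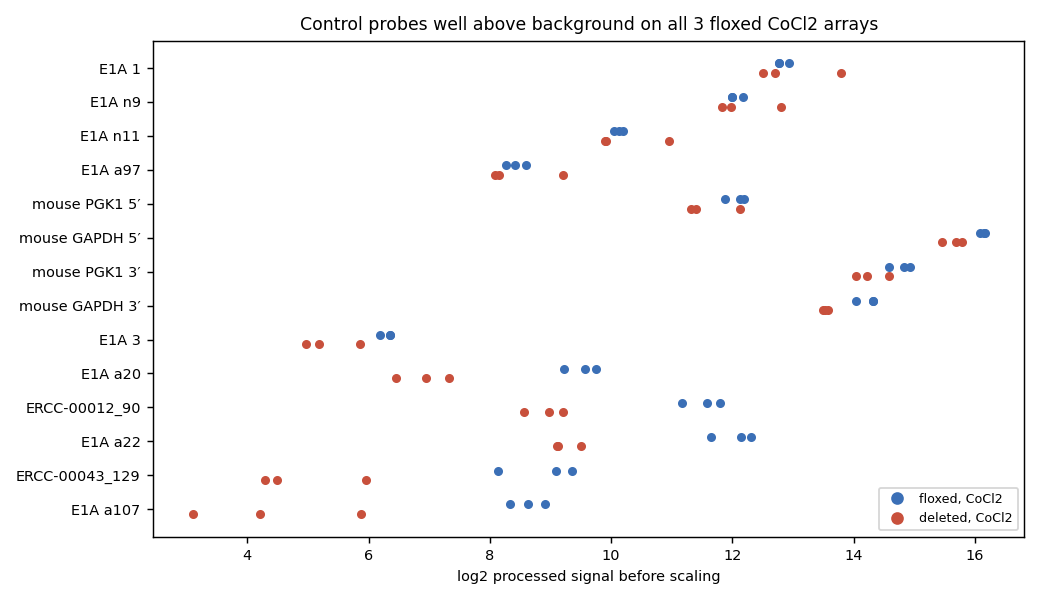
Log2 processed signal before scaling (x axis) of the 14 control probes well above background on all 3 floxed CoCl2 arrays, 1 point per array, blue for floxed and red for deleted cells. E1A probes 1, n9, n11 and a97 overlap between the genotypes, the mouse Pgk1 and Gapdh probes sit slightly lower in deleted cells, and E1A a20, a22 and a107 and both ERCC probes sit far lower there.

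Pgk1 and Gapdh, glycolytic enzyme genes and textbook HIF-1 targets, were measured by control probes. The Pgk1 3′ probe stood at 5.46, 5.41 and 5.69 on the floxed arrays and at 6.13, 6.30 and 5.92 on the deleted arrays. Every deleted array was above every floxed array, with a difference of 0.60 (SE 0.15, limma adjusted p = 0.00487). The 5′ probe differed by 0.65 (SE 0.18), and the Gapdh probes by 0.40 (3′, SE 0.13) and 0.61 (5′, SE 0.14). These directions depended on the scaling. The slide block left the 4 differences between 0.48 and 0.60 and none called (adjusted p = 0.240 and 0.226 for Pgk1 3′ and 5′, 0.153 and 0.0973 for Gapdh 3′ and 5′). The Gapdh 3′ call was also lost without floxed array 2 (adjusted p = 0.0521), with the 6 CoCl2 arrays alone and under normexp with the percentile scaling. All 4 calls were lost after scaling to the 6 E1A probes. The same held with the percentile over probes above background on all 12 arrays. Under the scaling to 4 E1A probes all 4 turned negative, between -0.83 and -0.58. Quantile normalization was not applied to control probes, so it gives no value for them. Before scaling the 4 probes differed by -0.69 to -0.45. The deletion effect under CoCl2 did not differ from that under PBS by the test for any of them (adjusted p from 0.131 to 0.988). For the 3′ Pgk1 probe the difference of effects was -0.01. As a sign of RNA quality, the 3′ minus 5′ signal of Pgk1 was 2.72 ± 0.03 (SD, n = 3) on the floxed and 2.67 ± 0.19 on the deleted arrays, and that of Gapdh was -1.91 ± 0.13 and -2.12 ± 0.14, each with arrays that overlapped.

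Genes with an established symbol came mostly from curated noncoding records, so a probe of a protein-coding gene reports a noncoding transcript of that gene. Of 230 such genes on the array 148 were tested, and 46 were higher and 55 lower in deleted cells. Among the 95 that were above background on all 6 arrays the balance was the other way, with 41 higher and 20 lower. At 68.2% called, the 148 genes did not stand out from the 69.1% of all probes. None was higher under all 8 scalings and 27 were lower under all 8. With slide as a block 8 were higher and 27 lower.

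**Figure D2:**
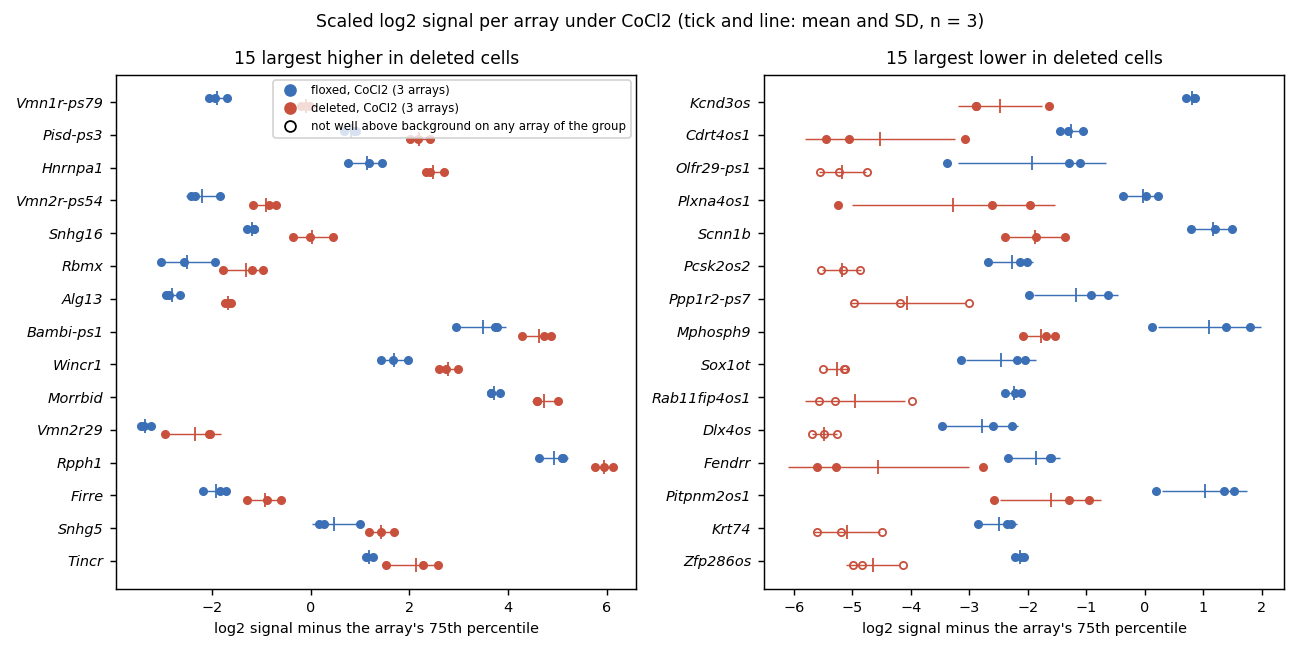
Scaled log2 signal (x axis) of the 15 largest higher and 15 largest lower genes with an established symbol, 1 point per array, with the mean and SD (n = 3) as a tick and line. Blue is floxed and red is deleted cells, and open points mark a group in which the probe was not well above background on any array, as for 8 of the 15 lower genes in deleted cells.

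The largest losses that stayed measurable in deleted cells were those of Kcnd3os, Scnn1b, Mphosph9 and Pitpnm2os1. Kcnd3os overlaps Kcnd3, the gene of a voltage-gated potassium channel. It stood at 0.70, 0.85 and 0.84 on the floxed arrays and at -2.89, -1.64 and -2.89 on the deleted arrays. The lowest floxed array was far above the highest deleted array, and Kcnd3os was lower by -3.27 (SE 0.32, 95% interval -3.97 to -2.57, limma adjusted p = 1.07e-05). Over the 8 scalings its difference ran from -4.50 to -2.26, and with slide as a block it was -2.50 (adjusted p = 0.0149).

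Scnn1b encodes the beta subunit of the epithelial sodium channel. Its noncoding record stood at 0.79, 1.48 and 1.20 on the floxed arrays and at -2.39, -1.37 and -1.87 on the deleted arrays, again without overlap. The difference was -3.03 (SE 0.28, adjusted p = 8.05e-06), with -2.52 under the slide block (adjusted p = 0.00652). Scnn1b was also lower in deleted cells with PBS, by -1.30 (adjusted p = 0.0484), and the effect under CoCl2 was larger by -1.74 (SE 0.40, adjusted p = 0.0117).

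Mphosph9, which encodes a centrosomal phosphoprotein, and Pitpnm2os1, which overlaps the phosphatidylinositol transfer protein gene Pitpnm2, are neighbours in the RefSeq table, with 0 listed genes starting between them. Mphosph9 stood at 0.12, 1.80 and 1.39 against -2.09, -1.69 and -1.54. Pitpnm2os1 stood at 0.19, 1.52 and 1.35 against -2.58, -1.30 and -0.95. In both, floxed array 1 was the lowest of its group but still above all deleted arrays. The differences were -2.87 (SE 0.37, adjusted p = 5.70e-05) and -2.63 (SE 0.45, adjusted p = 0.000364). With PBS the differences were -0.47 and -0.15 and were not called, and the change of the effect with CoCl2 passed for both (-2.40, adjusted p = 0.010, and -2.48, adjusted p = 0.0192). For the CoCl2 difference, the slide block kept the call of Mphosph9 (-2.51, adjusted p = 0.00243) and not that of Pitpnm2os1 (-1.99, adjusted p = 0.0510).

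Antisense transcripts made up 8 of the 15 largest losses. Of the 66 on the array 38 were tested, of which 21 were lower and 7 higher, where 35.3% of all probes were lower and 33.8% higher. Their median difference was -0.69 against 0.11 over all probes. Of the 19 that were above background on all 6 arrays, 8 were lower and 4 higher, beside 20.5% and 46.4% of all probes under that filter. Cdrt4os1, over Cdrt4, stood at -1.44, -1.05 and -1.31 on the floxed arrays and at -5.46, -3.07 and -5.05 on the deleted arrays. Plxna4os1, over the semaphorin receptor gene Plxna4, stood at -0.37, 0.23 and 0.02 against -5.25, -1.96 and -2.61. Deleted array 2 was the highest of its group for both, and no array crossed between the groups. Cdrt4os1 was well above background on 1 of the 3 deleted arrays and Plxna4os1 on 2, so the sizes are uncertain. The differences were -3.26 (SE 0.47, adjusted p = 0.000107) and -3.23 (SE 0.63, adjusted p = 0.000809), and neither passed with slide as a block (adjusted p = 0.0517 and 0.131).

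The other antisense losses are known only as bounds, because the probe was not well above background on any deleted array. Zfp286os was at least 2.22-fold lower, Rab11fip4os1 at least 2.07-fold, Pcsk2os2 at least 2.02-fold and Dlx4os at least 1.42-fold, with limma adjusted p from 6.76e-06 to 5.34e-05. Each bound sets the mean of the floxed arrays against the lowest signal that counted as measured on the deleted arrays, or the probe's own signal where higher. These 4 transcripts overlap the genes of a zinc-finger protein, a Rab11 effector, a prohormone convertase and a homeobox factor. All 4 were lower under all 8 scalings and with slide as a block.

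Among all tested probes, long noncoding RNAs with known names split both ways. The list held 45 genes, of which 22 had a probe and 17 were tested, and on their 20 probes 6 were higher, 6 lower and 8 not called, beside 33.8% higher and 35.3% lower over all probes. Of the 14 probes above background on all 6 arrays, 6 were higher and 0 lower, beside 46.4% and 20.5% of all probes under that filter. The lower calls thus all came from probes that passed the filter through the floxed arrays only. Fendrr, an RNA beside Foxf1 that is needed in the developing heart and body wall, stood at -2.34, -1.63 and -1.61 on the floxed arrays and at -5.60, -2.77 and -5.28 on the deleted arrays. Only 1 of the 3 deleted arrays was well above background, so the size is uncertain. Fendrr was lower by -2.69 (SE 0.57, adjusted p = 0.00147), with all floxed arrays above all deleted ones, and was not called with slide as a block (adjusted p = 0.147). Sox1ot, over the transcription factor gene Sox1, was at least 1.78-fold lower, Kcnq1ot1, the antisense RNA of an imprinted cluster, at least 2.06-fold, and Hottip, of the HoxA cluster, at least 1.17-fold. Crnde and Lncenc1 were at least 1.27-fold and at least 1.25-fold lower, and normexp with the percentile scaling turned these to 0.10 and 0.04. Kcnq1ot1 and Hottip lost the call under that setting. Crnde lost the call with slide as a block (adjusted p = 0.171) and the other 4 genes known as bounds kept it.

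Norad, a cytoplasmic RNA that binds Pumilio proteins, stood at 3.51, 3.27 and 3.29 against 4.15, 4.36 and 4.03. Every deleted array was above every floxed array, with a difference of 0.82 (SE 0.17, limma adjusted p = 0.00111). Norad was called under 4 of 8 scalings and not with slide as a block (0.61, adjusted p = 0.139). Meg3, Rian and Airn, RNAs of imprinted clusters, and Lncpint and Trp53cor1, RNAs linked to p53, had adjusted p from 0.127 to 0.888, with differences between -0.26 and 0.51. For Airn leaving out floxed array 1 brought the adjusted p to 0.0123. These results also moved with the scaling. Trp53cor1 was called under every other scaling except that to 10 E1A probes. Airn was called with 10 E1A probes, Meg3 with 4 and Lncpint with either set. The probes of 2 genes did not agree: Ftx, an RNA of the X inactivation centre, was at 0.31 on its accession probe (adjusted p = 0.255) and lower by -1.63 on a design-named probe that was above background on 1 of 3 deleted arrays, and Rian at 0.31 on the accession and 1.37 on a clone. Neither of the 2 called probes passed with slide as a block (adjusted p = 0.119 and 0.319).

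Mir22hg is the host transcript of miR-22, a microRNA known for its part in the smooth muscle phenotype. It stood at 3.12, 2.98 and 3.26 on the floxed arrays and at 4.13, 3.82 and 3.59 on the deleted arrays. The groups did not overlap, and the difference was 0.73 (SE 0.16, adjusted p = 0.00219). It was not called with slide as a block (0.47, adjusted p = 0.261) and turned to -0.50 under the scaling to 4 E1A probes. The arrays measured the host transcript, not the mature microRNAs, whose sequences (RefSeq, GRCm38.p6) are shown with the seed, bases 2 to 8, in capitals because the seed sets which targets they pair with.
mmu-miR-22-3p: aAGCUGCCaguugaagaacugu
mmu-miR-22-5p: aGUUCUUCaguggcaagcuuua

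Most of the tested host genes of small nucleolar RNAs were higher in deleted cells after the percentile scaling. Of the 22 listed snoRNA host genes and translation RNAs 8 were tested, of which 6 were higher and 0 lower. Higher were also 33.8% of all probes, 46.4% of those above background on all 6 arrays and 59.7% in the quartile of highest PBS signal. Snhg18 and Snhg8 were not called (0.51 and 0.46, adjusted p = 0.064 and 0.11). Snhg16, which holds the snoRNAs Snord1a, Snord1b and Snord1c, stood at -1.14, -1.30 and -1.15 on the floxed arrays and at -0.36, 0.46 and -0.01 on the deleted arrays. All deleted arrays were higher, by 1.23 (SE 0.21, limma adjusted p = 0.000338). Rpph1, the RNA component of ribonuclease P, stood at 5.09, 4.63 and 5.11 against 5.94, 6.12 and 5.76 and was higher by 1.0 (SE 0.16, adjusted p = 0.000251). Snhg9, Snhg3, Snhg5 and Snhg7 were higher by 0.83, 0.96, 0.95 and 0.68. With slide as a block Snhg16 and Rpph1 kept the call (adjusted p = 0.0467 and 0.0407) and the other 4 lost it. The Snhg5 call was also lost without floxed array 2 or 3 or deleted array 3 (adjusted p from 0.0551 to 0.0647), and that of Snhg7 in 7 of 12 such fits (0.0536 to 0.139), those without any floxed PBS array, floxed array 2 or 3, or deleted array 1 or 3.

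Hnrnpa1 encodes an abundant splicing factor, and its noncoding record stood at 1.45, 0.76 and 1.19 on the floxed arrays and at 2.69, 2.41 and 2.34 on the deleted arrays. The difference was 1.35 (SE 0.20, 95% interval 0.90 to 1.79, adjusted p = 0.000155), with 1.37 under the slide block (adjusted p = 0.0240). Rbmx, of another RNA-binding protein, stood at -1.95, -2.56 and -3.04 against -1.20, -1.78 and -0.97, so that the groups came close without overlap. It was higher by 1.20 (SE 0.30, adjusted p = 0.00377), and by 0.86 with slide as a block, which was not called (adjusted p = 0.154). A clone at Luc7l, a splicing factor gene, was higher by 1.48 with groups that overlapped (adjusted p = 0.0228). That call was lost with slide as a block (0.29, adjusted p = 0.633), with the 6 CoCl2 arrays alone and without deleted array 1 (adjusted p = 0.0834). These were the 3 tested of the 23 listed RNA-binding and splicing genes, and 1 of them, Hnrnpa1, was called with the block.

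The other large gains fell among pseudogenes and noncoding RNAs. Vmn1r-ps79, a vomeronasal receptor pseudogene, stood at -1.69, -2.06 and -1.93 against -0.21, -0.09 and -0.01, a difference of 1.79 (SE 0.34, adjusted p = 0.000757). Pisd-ps3 stood at 0.92, 0.87 and 0.68 against 2.42, 2.01 and 2.18 (1.38, SE 0.18, adjusted p = 5.60e-05), and pseudogenes can share probes' targets with their parent gene. Wincr1, a Wnt-induced RNA, stood at 1.97, 1.42 and 1.66 against 2.75, 2.61 and 2.98 (1.09, SE 0.18, adjusted p = 0.000321). Morrbid, an RNA beside the cell death gene Bcl2l11, was higher by 1.02, Firre, a nuclear RNA of the X chromosome, by 0.98, Tincr, of epidermal differentiation, by 0.95, and the noncoding record of Alg13, of protein glycosylation, by 1.15.

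None of the 15 largest gains held under every scaling, and 12 of the 15 were called under all but the scaling to 4 E1A probes. That scaling was added after seeing the data and called 95 of all 65948 tested probes higher and 41583 lower. Scaled to 4 E1A control probes, 0 of the 15 were called, 11 had the opposite sign, and the values ran from -0.28 to 0.56. With slide as a block 7 kept the call (Pisd-ps3, Hnrnpa1, Snhg16, Alg13, Wincr1, Morrbid and Rpph1) and 8 lost it. Of the 15 largest losses, 14 were called under all 8 scalings and Krt74 under 7, and 11 kept the call with slide as a block.

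**Figure D3:**
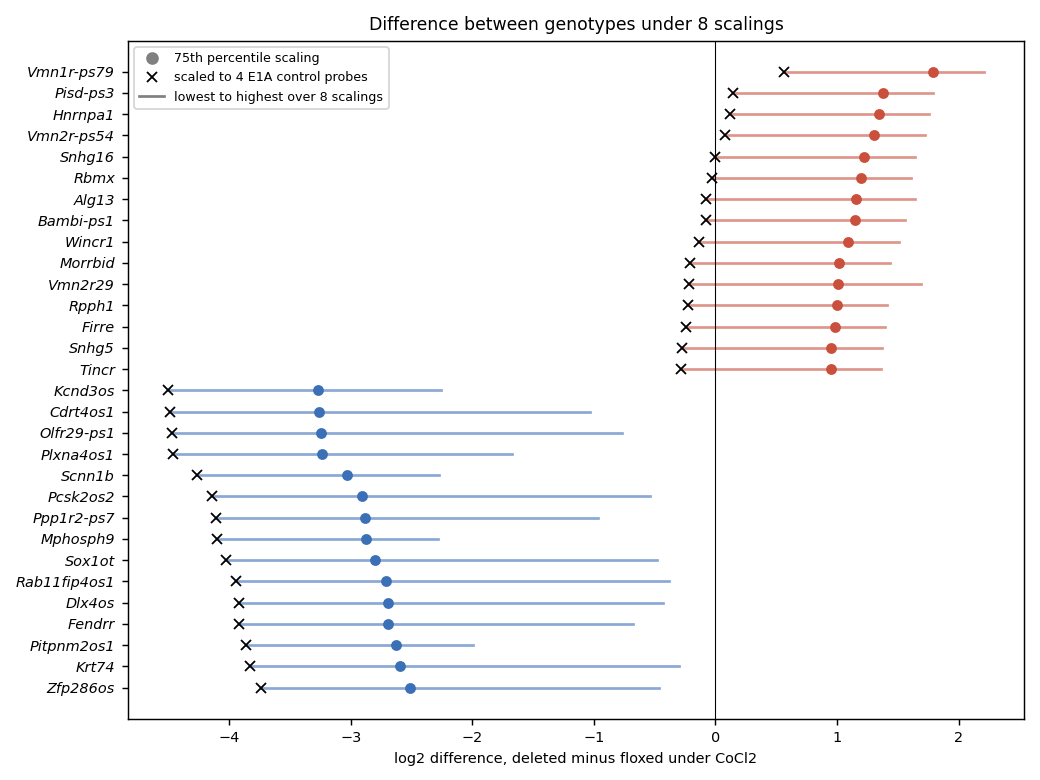
Log2 difference between deleted and floxed cells under CoCl2 (x axis) for the same 30 genes, with the 75th percentile scaling as a dot, the scaling to 4 E1A probes as a cross and a line from the lowest to the highest of 8 scalings. The lines of the 15 lower genes stay below 0, and those of 11 of the 15 higher genes cross it.

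Promoters of some of these genes are shown because the HIF core gives a way to describe them. The core ACGTG or GCGTG, on either strand (CACGT and CACGC on the strand shown), was searched in the 300 bases from 250 before to 50 after each gene start in RefSeq's table (GRCm38.p6). It was found in 43.8% of 32851 promoters. Of the 15 largest gains 10 genes matched the table and 9 had the core, and of the 15 largest losses 10 matched and 3 had it. The count of CG, which both cores contain, had a median of 7 over all promoters. It exceeded 7 in 9 of the 10 gains and in 7 of the 10 losses, and ran from 3 to 36 and from 2 to 31 in these sets. The gene start need not be that of the noncoding record, and a match is a description, not a binding site. The capitals below mark the core in Hnrnpa1 and Snhg16, both higher, and Mphosph9, lower, and Scnn1b, lower, had none. They lie at chr15:103240147-103240446 (plus strand), chr11:116671410-116671709 (plus), chr5:124327923-124328222 (minus) and chr7:121864788-121865087 (plus).
Hnrnpa1: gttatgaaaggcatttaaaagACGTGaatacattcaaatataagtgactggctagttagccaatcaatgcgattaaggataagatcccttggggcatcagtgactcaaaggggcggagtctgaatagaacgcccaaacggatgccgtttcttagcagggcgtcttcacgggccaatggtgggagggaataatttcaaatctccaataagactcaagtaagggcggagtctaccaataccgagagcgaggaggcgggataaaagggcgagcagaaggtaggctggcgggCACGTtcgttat
Snhg16: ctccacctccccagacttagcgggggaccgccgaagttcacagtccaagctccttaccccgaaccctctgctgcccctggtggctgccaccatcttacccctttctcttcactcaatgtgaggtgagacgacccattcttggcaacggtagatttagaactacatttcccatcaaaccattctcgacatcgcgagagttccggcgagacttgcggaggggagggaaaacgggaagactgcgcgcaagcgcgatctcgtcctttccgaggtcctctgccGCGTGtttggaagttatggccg
Mphosph9: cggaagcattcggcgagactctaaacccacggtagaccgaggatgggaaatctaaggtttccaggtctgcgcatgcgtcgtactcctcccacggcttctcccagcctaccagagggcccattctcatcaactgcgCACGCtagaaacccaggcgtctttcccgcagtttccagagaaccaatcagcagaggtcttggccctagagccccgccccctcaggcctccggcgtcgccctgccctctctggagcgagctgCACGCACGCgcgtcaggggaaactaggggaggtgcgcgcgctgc
Scnn1b: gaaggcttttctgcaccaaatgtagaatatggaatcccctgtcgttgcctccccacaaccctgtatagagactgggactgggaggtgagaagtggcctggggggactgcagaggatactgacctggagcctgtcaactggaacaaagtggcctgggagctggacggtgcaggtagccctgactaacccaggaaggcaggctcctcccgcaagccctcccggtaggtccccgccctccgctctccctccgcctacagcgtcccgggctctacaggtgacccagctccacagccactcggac

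Probes for RIKEN cDNA clones covered more listed genes, although the transcript they detect need not be the coding one. Of 19 such probes 16 were tested, of which 8 were higher and 4 lower, beside 33.8% and 35.3% of all probes. The clone at Os9, the gene of a lectin of protein quality control that also binds HIF-1alpha, was the only tested probe of the 20 listed HIF pathway regulators. It stood at -2.75, -2.08 and -2.10 on the floxed arrays, was not above background on any deleted array, and was at least 1.97-fold lower (limma adjusted p = 2.02e-05). The Kif2c clone, from the locus of a kinesin of mitosis, stood at -1.10, -0.53 and -0.50 against -2.0, -1.98 and -1.69 and was lower by -1.18 (SE 0.20, adjusted p = 0.000336), under all 8 scalings and with slide as a block. The clone at Cdk2, a kinase of the G1 to S transition, was above background on 2 of 3 floxed arrays and higher by 0.56, and was not called with slide as a block (0.44, adjusted p = 0.229). With Mphosph9 these were the 3 tested of the 23 cell cycle genes.

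Clones at contractile genes did not move together. The clone at Cald1, the actin-binding caldesmon gene, stood at 2.77, 2.20 and 2.51 against 3.32, 2.89 and 3.41 and was higher by 0.71 (SE 0.19, adjusted p = 0.00574), in 3 of 8 scalings only and not with slide as a block (adjusted p = 0.0714). Of 2 clones at Synpo2, of an actin-bundling protein, 1 was lower by -0.57 (adjusted p = 0.0149, and 0.0543 or 0.0567 without floxed array 2 or 3) and the other was at 0.52 (adjusted p = 0.168). A clone at Rgs5 did not pass (-0.56), and a clone at Myom1, of the sarcomeric M-band, was at least 1.77-fold lower. The Myom1 call was lost under normexp with the percentile scaling. The clone at Atg12, an autophagy gene, was higher by 0.96, and that at Lamb1, a laminin gene, by 0.93. Under the slide block they were at 0.34 and 0.29 and neither was called (adjusted p = 0.452 and 0.608). Among oxidative stress genes, the clone at Sod1, of superoxide dismutase, was higher by 0.80 and Gssos2, antisense to the glutathione synthetase gene by its name, by 1.23, each with overlapping groups. Both calls were lost without floxed array 1 or deleted array 1 or 2, and that of Gssos2 also without floxed array 2 (adjusted p from 0.0527 to 0.0783). Neither was called under the slide block (adjusted p = 0.526 and 0.258), nor was the lower Synpo2 clone (0.210). Mx2, an interferon-induced gene, was at least 3.09-fold lower (adjusted p = 5.65e-05).

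Probes that carry a name of their own in the array design numbered 29, of which 12 were tested, 4 higher and 8 lower, beside 33.8% and 35.3% of all probes. Of the 6 above background on all 6 arrays, 4 were higher and 2 lower, beside 46.4% and 20.5% of all probes under that filter. Under the 75th percentile scaling, the lower ones included the probes named rmst and MEG9, at least 1.42-fold and at least 1.61-fold lower, alncrnaec7, at least 2.15-fold lower, and chrf. Over the 8 scalings the smallest losses were -0.15 log2 units for MEG9 and -0.43 for alncrnaec7, and rmst turned to 0.034. The MEG9 call was lost under normexp with the percentile scaling. The chrf probe stood at -1.35, -1.41 and -1.73 against -4.92, -2.55 and -3.24 (lower by -2.07, SE 0.45, adjusted p = 0.00173), but was above background on only 1 of the 3 deleted arrays, so the size is uncertain. The higher ones included linc1257, at 0.87, 0.99 and 0.75 against 2.13, 2.14 and 1.65, a difference of 1.11 (SE 0.19, adjusted p = 0.000369). Neither chrf, linc1257 nor rmst passed with slide as a block (adjusted p = 0.199, 0.106 and 0.0611).

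Among all tested probes, the direction of the difference varied with the class of the probe and its signal. Of 29517 catalogue probes, 13681 were higher and 7729 lower (median 0.44), and of 6272 probes of predicted RefSeq transcripts 807 were higher and 3819 lower (median -1.0). NONCODE probes had 4367 higher and 7915 lower of 18431 (median -0.23), curated noncoding RefSeq records 115 and 226 of 508, Ensembl transcripts 95 and 254 of 480, and RIKEN clones 3169 and 3280 of 10557. Among probes above background on all 6 arrays, higher calls outnumbered lower ones in these classes. NONCODE had 4331 and 3230 of 12232, curated records 107 and 60 of 289, Ensembl 94 and 82 of 273, and RIKEN 3141 and 1438 of 7710. Under that filter catalogue probes had 13721 and 3701 of 24100, and predicted RefSeq transcripts 768 and 1251 of 3165. Ranked by mean signal on the 6 PBS arrays, which are not part of the contrast, the lowest quartile of probes had 51.4% lower and 15.5% higher, and the highest quartile 17.3% lower and 59.7% higher. The median difference went from -0.73 over -0.20 and 0.25 to 0.63 across the quartiles. The quartiles cover all tested probes, including those above background on no deleted array. The part that signal has in the differences between classes was not tested.

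**Figure D4:**
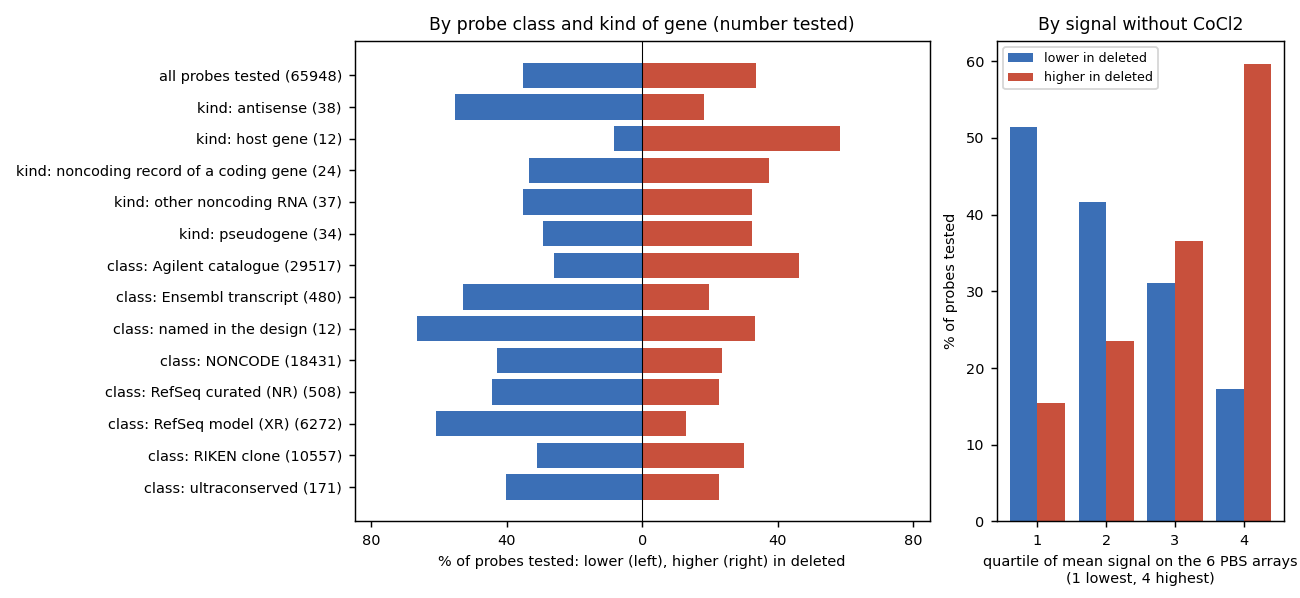
Left, percent of tested probes called lower (blue, to the left) or higher (red, to the right) in deleted cells under CoCl2, by kind of gene and class of probe, with the number tested in brackets. Right, the same percent by quartile of mean signal on the 6 PBS arrays, where the lower share goes from 51.4% to 17.3% and the higher share from 15.5% to 59.7%, under the 75th percentile scaling.

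Without CoCl2 the same deletion was followed by far fewer calls. With PBS 893 of the 65948 probes were called (1.35%), 347 higher and 546 lower. Under CoCl2, 336 of the 347 were also higher (96.8% of the PBS list and 1.51% of the CoCl2 list) and 535 of the 546 also lower (98.0% and 2.30%), with 0 in the opposite direction. The PBS and CoCl2 comparisons share no arrays but share the estimate of each probe's spread. The floxed PBS arrays lay on slide 1 and the deleted PBS arrays on slides 2 and 3. Genotype and slide therefore cannot be told apart within a slide in either comparison. The effects themselves differed for 14450 probes (21.9%), more negative under CoCl2 for 12231 (18.5%) and more positive for 2219 (3.36%). This count moved with the arrays: it was 204 with slide as a fixed block, and between 7794 and 8490 without floxed PBS array 2, floxed CoCl2 array 2 or 3, or deleted PBS array 1 or 2.

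Among the 148 genes with an established symbol the effects differed for 26, beside 21.9% of all probes. All 26 were more negative under CoCl2. They included 12 of the 15 largest losses, such as Kcnd3os, at -0.65 with PBS (adjusted p = 0.196) and -3.27 with CoCl2, a change of -2.62 (SE 0.45, limma adjusted p = 0.00379). The losses were ranked by the CoCl2 contrast, which is part of the difference of effects, so a high count among them was built in. None of the 15 largest gains was among the 26 genes. Those 15 were all higher in deleted cells with PBS as well, by 0.17 to 1.26, and none of these PBS values was called.

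**Figure D5:**
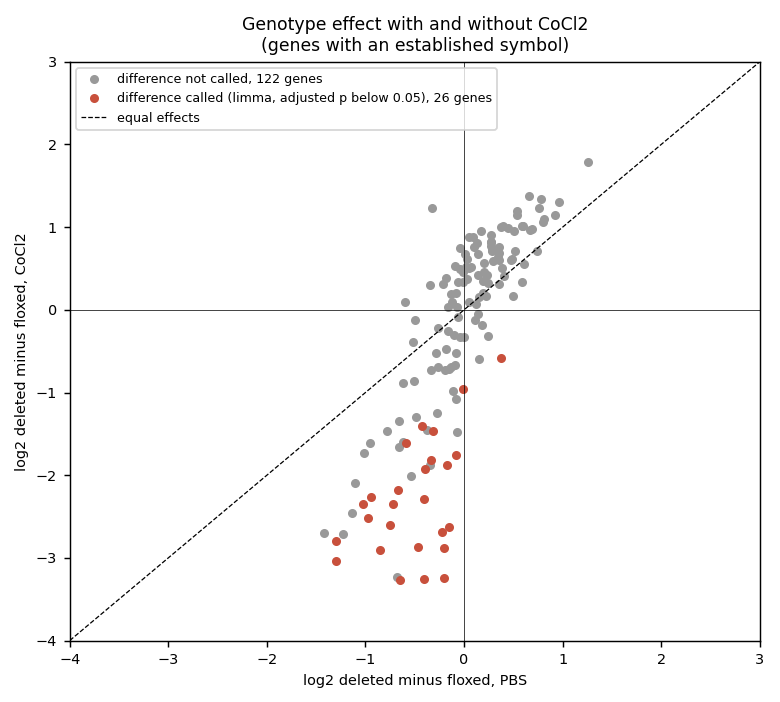
Log2 difference between deleted and floxed cells with PBS (x axis) and with CoCl2 (y axis) for the 148 tested genes with an established symbol, 1 point per gene, red where the difference of effects was called and a dashed line where both are equal. The 26 red points lie below the line, under the 75th percentile scaling.

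The 95 probes called higher under all 8 scalings were examined after their values were seen. They comprise 57 catalogue probes, 18 NONCODE transcripts, 11 RIKEN clones, 6 predicted RefSeq transcripts and 3 Ensembl transcripts, and 69 were above background on all 6 arrays. All 95 were also higher in deleted cells with PBS, 70 of them by over 1 log2 unit and 29 past the test. With slide as a block 54 were called higher. The clone A130079I05 stood at -0.13, -0.01 and 0.35 on the floxed arrays and at 4.29, 4.07 and 3.58 on the deleted arrays. It was 15.02-fold higher (log2 difference 3.91, SE 0.26, limma adjusted p = 2.23e-06) and differed by 3.74 with PBS too (adjusted p = 0.000505).

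For 22 of the 95 the difference between the effects was called, all more positive under CoCl2, beside 3.36% of all probes. The 95 were chosen by the CoCl2 contrast, which is part of that difference. Their share is therefore not comparable with that of all probes. A clone at Gprasp1, the gene of a receptor-sorting protein, stood at 2.12, 1.70 and 1.89 against 4.25, 3.90 and 3.94, higher by 2.13 (SE 0.20, adjusted p = 8.03e-06). With PBS it was higher by 1.04 (adjusted p = 0.0469), and the change of the effect was 1.09 (SE 0.28, adjusted p = 0.0184). The clone 9630013A14 stood at -2.38, -2.12 and -2.35 against -0.18, -0.23 and -0.51, higher by 1.98 (SE 0.16, adjusted p = 4.47e-06) against 0.54 with PBS, a change of 1.44 (SE 0.23, adjusted p = 0.00267). The CoCl2 difference of both clones passed with slide as a block (limma adjusted p = 0.00662 and 0.00608). Their change of effect with the block is not given here. Over all probes 204 changes of effect passed with it, 14 of them more positive under CoCl2. The transcripts ENSMUST00000190543, ENSMUST00000185603 and ENSMUST00000189901 were higher by 2.65, 2.50 and 2.49 and by 2.08 to 2.10 with PBS. The difference of effects did not pass (adjusted p from 0.665 to 0.745), and the CoCl2 difference passed for none of the 3 with the block. The clone E130101M22 stood at 5.20 on deleted array 2 but at 0.29 and 0.17 on the other deleted arrays, against -1.18, -0.87 and -1.27, a difference of 2.99 (SE 0.99, adjusted p = 0.0179) that was 1.33 without deleted array 2. Its difference from the PBS effect did not pass (adjusted p = 0.185).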

How the data were processed

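The scanner output that the authors deposited gives intensity per spot, not log-transformed, from Agilent Feature Extraction 11.5.1.1 with the design build mm9, per the file headers. Version 9.1 is named in the submitters' processing notes. The series value table, as deposited, holds log2 values that differ from the log2 scanner signals by a constant within 0.01 per array, and served as an alternative. The sources used here do not say how that table was made. Control spots and outlier spots were left out, log2 processed signal was averaged per probe (175906 spots, 97836 probes), and each array's 75th percentile was subtracted. Tests used limma 3.58.1 in R 4.3.3 on 12 arrays with 4 group means (8 residual and 3.67 prior degrees of freedom) and Benjamini-Hochberg adjustment over all tested probes, and the fit was tested on simulated data. Gene names came from RefSeq accessions (GRCm38.p6), of which 840 of 871 curated and 3816 of 12146 predicted records matched. Named were Pgk1, Gapdh, the 15 largest gains and losses without overlap among established symbols, and members of prepared lists. The members and lists were chosen with earlier results of these data known. A gene with several probes was represented by the probe with the highest mean. Same-numbered arrays did not all deviate together (correlations 0.089, 0.236 and -0.163), so the numbers were not used as pairs. The files' median spot signals took the place of mean signals in the normexp correction, with an offset of 50.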

Additional observations from a re-analysis of the deposited data

Results flagged for a closer look

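The deletion effect differed between CoCl2 and PBS by the limma test of the difference itself for 14450 probes. Of the 38 tested antisense transcripts it was called for 8, which did not stand out from the 21.9% of all probes. Among the genes and probes named here, the effect was more negative under CoCl2 for the antisense transcripts Cdrt4os1 (-2.85 log2 units), Kcnd3os (-2.62), Pitpnm2os1 (-2.48), Pcsk2os2 (-2.06) and Zfp286os (-1.54). It was more negative for the pseudogenes Olfr29-ps1 (-3.05) and Ppp1r2-ps7 (-2.68) and for noncoding records of Mphosph9 (-2.40), Krt74 (-1.85), Scnn1b (-1.74) and Mx2 (-1.49). Of the long noncoding RNAs, the difference was -2.47 for Fendrr, -1.50 for Sox1ot, -1.32 for Hottip, -1.15 for Crnde and -0.98 for Lncenc1. Of the design-named probes, it was -2.15 for alncrnaec7, -1.64 for MEG9 and -1.09 for rmst, and of the clones -2.53 at Os9 and -1.59 at Myom1. The effect was more positive under CoCl2 for the clones 9630013A14 (1.44), 7120429N14 (1.36) and 5730403L22 (1.15) and the clone at Gprasp1 (1.09). Adjusted p-values of these differences ran from 0.00267 to 0.0483. Most of the negative ones involve a group that was not well above background, where the size is uncertain.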

How the results depend on the processing

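The count of 45577 called probes became 17822 with slide as a fixed block. Among probes above background on all 6 arrays it went from 31996 to 10073 with that block and to 19042 after scaling to 6 E1A probes. The 14450 probes whose deletion effect differed between CoCl2 and PBS became 26394 when scaled to 4 E1A probes, a setting added after seeing the data. They became 6954 after quantile normalization, 5285 and 5529 after normexp with percentile and quantile scaling, 5153 among probes above background on all 12 arrays, 204 with slide as a fixed block and 8010 with it as a random block. The causes were not tested, except that the fixed block leaves fewer degrees of freedom and raises the median SE from 0.218 to 0.373. Leaving out 1 array gave 40408 to 45626, 27771 to 31876 and 7794 to 18250 for these counts. The replicate number as a block gave 46173, 32747 and 14192, so a paired reading changed none of them by over 1.5 times, and of 101 named results it changed 0. The deposited value table and the outlier spots also changed 0 named calls. With slide as a fixed block 49 of 101 lost the call and Snhg7 turned to -0.086.

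Scaled to 4 E1A probes, these called gains turned negative. Among noncoding RNAs Alg13 was at -0.077, Rbmx at -0.032, Snhg16 at -0.0035, Snhg3 at -0.27, Snhg5 at -0.28, Snhg7 at -0.55, Snhg9 at -0.40, Rpph1 at -0.23, Norad at -0.41, Mir22hg at -0.50, Morrbid at -0.21, Firre at -0.25, Tincr at -0.28, Wincr1 at -0.14, Vmn2r29 at -0.22 and Bambi-ps1 at -0.079. Of the clones, that at Atg12 was at -0.27, Cald1 at -0.52, Cdk2 at -0.67, Lamb1 at -0.29, Mir100hg at -0.45 and Sod1 at -0.43. Of the design-named probes, BACE1AS was at -0.64, linc1257 at -0.12 and msx1as at -0.62. The control probes of Gapdh were at -0.83 and -0.62 (3′ and 5′) and those of Pgk1 at -0.63 and -0.58. Quantile normalization was not applied to control probes, and before scaling these 4 were at -0.69, -0.49, -0.50 and -0.45. Normexp with the percentile scaling turned Crnde to 0.10, its design-named probe to 0.18, Lncenc1 to 0.044 and rmst to 0.034. Under it Hottip, Kcnq1ot1, Krt74, MEG9 and the Myom1 clone lost the call. Low signal limits the losses: 8387 of the 23300 lower calls have only a bound in deleted cells.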
